A study of Mus musculus with 4 samples.

Results

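The intercalated disc is the specialised contact where cardiomyocytes meet end to end, and 10 of its genes were followed here in mouse heart RNA: Cdh2, Jup, Ctnna1, Ctnna3, Dsp, Dsg2, Dsc2, Pkp2, Gja1 and Cxadr. Members were all probes whose gene name in the scanner files equals 1 of these symbols. This gave 30 of the 56605 probes on the array, and 10 of 37074 distinct names. Of the 30 probes, 21 carried a P flag (present: a signal well above background and free of outlier flags) on at least 1 array, 17 on all 4 arrays and 9 on none.

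Adherens junctions of the disc anchor actin filaments, desmosomes anchor desmin filaments, and gap junctions pass the electrical impulse from cell to cell. In the adherens junction the transmembrane protein N-cadherin binds catenins in the cytoplasm, and in the desmosome desmogleins and desmocollins bind plakoglobin, plakophilins and desmoplakin. Human mutations of the desmosomal genes are a known cause of arrhythmogenic cardiomyopathy.

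Hearts of female C57BL/6J mice gave the total RNA, which was read on 4 single-colour Agilent arrays, 1 per condition. Cyclophosphamide (CY), an alkylating cytotoxic drug, was given at 400 mg/kg in the CY group. The NAC + CY group received CY at 400 mg/kg with N-acetyl cysteine (NAC), a thiol antioxidant, at 200 mg/kg. The acrolein group received 5 mg/kg of this reactive aldehyde, a metabolite of CY, and the NS group received normal saline as the control. All mice had daily injections into the peritoneum for 2 days, and the labels and methods place sampling 3 h after the second dose. The labels give an age of 6 weeks, the methods of the study a younger age, and some passages of the study name a later sampling time for the changed genes. The series text speaks of 3 independent studies, but 1 array per condition was analysed, and whether RNA of several mice was pooled is not stated. The differences below therefore have no replicate check and carry no p-value.

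Signals are in arbitrary fluorescence units after quantile normalisation over the 4 arrays, and each ± is the error that Agilent Feature Extraction assigns to the spot (10 to 13.2% of the signal for the brightest flagged probe of each gene). This error is a model value for the measurement of the spot, applied as a percentage of the normalised signal, and does not cover the spread between mice. For bright probes it was close to 10% on every array. Error ranges of such probes that do not overlap therefore mark a near-fixed cut-off of the ratio and not a measured spread. Probes were tested where at least 1 of the 2 arrays compared carried the P flag. The Z-score gives how many SDs a log2 ratio lies from the mean of the 200 probes of closest signal, the window of the probe. A call of higher needed a Z-score of 2 or more and a ratio of 1.5 or more, and a call of lower a Z-score of -2 or less and a ratio of 0.66 or less. The gene's value is that of its flagged probe with the highest mean signal. Signals of different probes are not comparable as amounts of RNA, because each probe binds with its own efficiency.

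The arrays were alike in the spot measures that follow, but NS had a higher background limit. The lowest signal well above background was 16.5 on NS and 12.5 to 12.8 on the other arrays. No value of RNA integrity enters these measures. All 4 lay on 1 slide, no spot was saturated, between 47.1% (NS) and 50% (acrolein) of probes were well above background, and repeated spots of a probe differed by an SD of 0.052 to 0.058 on the log2 scale. All 12 cardiomyocyte markers, among them the myosin Myh6 and the troponins Tnnt2 and Tnni3, were above background on every array.

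After CY, N-cadherin (Cdh2) and 1 probe of alpha-T-catenin (Ctnna3) were called lower, and no probe of the 10 genes was called higher. The fall of Cdh2 left 0.53 of the NS signal. Of the 20 member probes tested, 2 were called lower, where 2.55% of all 28757 tested probes were called lower and 2.84% higher. By gene value 1 of the 10 genes was lower (Cdh2), where 2.81% of 19721 genes were called lower and 3.38% higher. With NAC + CY the same Ctnna3 probe was called lower, 1 of 20 tested, where 2.28% of 28885 probes were called lower and 2.32% higher. With acrolein none of the 20 was called in either direction, where 1.24% of 28665 probes were called lower and 1.05% higher.

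**Figure D1:**
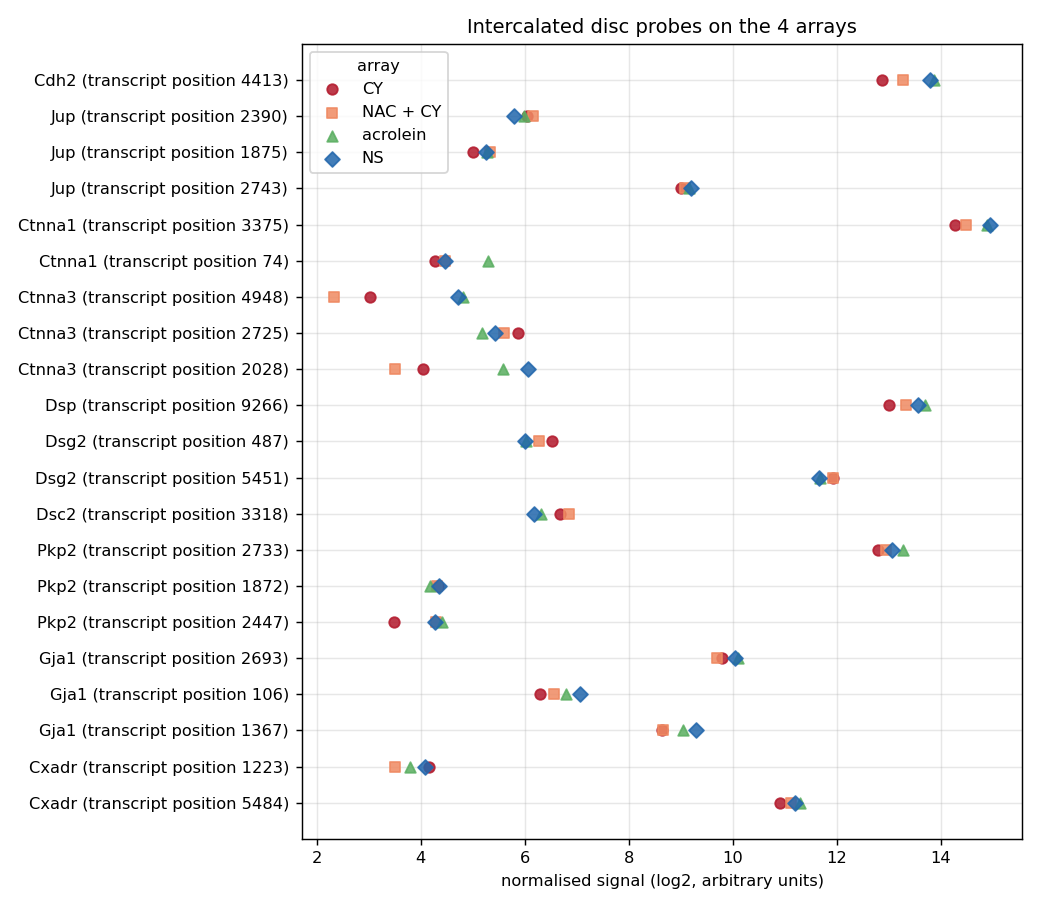
Normalised signal (log2, arbitrary units) of the 21 intercalated disc probes with a P flag on at least 1 array, 1 point per array for CY, NAC + CY, acrolein and NS. The arrays lie close together for most probes, and the Ctnna3 junction probe (the lowest of the 3 Ctnna3 rows) had signals of 16.5 in CY and 11.3 in NAC + CY, against 67.2 in NS.

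Cdh2 encodes N-cadherin, the calcium-dependent adhesion receptor of the cardiac adherens junction. Its flagged probe (chr18:16747559-16747618, mm9, base 4413 of the transcript) had signals of 7493 ± 749 in CY, 9899 ± 990.0 in NAC + CY, 15039.9 ± 1504 in acrolein and 14154 ± 1415 in NS. The CY array was the lowest, NAC + CY stood between CY and NS, and the error ranges of these 3 arrays did not overlap, whereas those of acrolein and NS did. The log2 ratio to NS was -0.92 for CY (Z-score -2.35, called lower), -0.52 for NAC + CY (Z-score -1.60, not called) and 0.09 for acrolein (Z-score 0.57, not called). NAC + CY against CY gave 0.40 (Z-score 1.42, not called). The 200 probes nearest to Cdh2 in signal had an SD of 0.36 in CY against NS. The call was lost with the normexp background correction (log2 ratio -0.91, Z-score -1.95), at a Z-score of 3 and at a ratio of 2. A second Cdh2 probe, for another transcript of the gene, had no P flag on any array. In heart tissue, fewer cells of a type and less RNA per cell cannot be told apart, and this holds for every value given here.

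The alpha-catenins connect the cadherin complex to actin. For Ctnna1 (alpha-E-catenin; chr18:35414129-35414188) the signal was 19921 ± 1992 in CY, 22886 ± 2289 in NAC + CY, 30347 ± 3035 in acrolein and 31434 ± 3143 in NS. CY and NAC + CY were low and overlapped in error, and both lay below acrolein and NS, which overlapped with each other. No call was made, with log2 ratios to NS of -0.66 for CY (Z-score -1.23), -0.46 for NAC + CY (Z-score -1.40) and -0.05 for acrolein. With the median and scaled MAD of the window in place of mean and SD, Ctnna1 was called lower in CY (Z-score -2.26).

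A dim second probe of Ctnna1 had signals of 19.3 in CY, 22.2 in NAC + CY, 39.1 in acrolein and 22.1 in NS. It stood just outside the threshold in acrolein (log2 ratio 0.82, Z-score 1.98, not called) and did not share the low CY value of the bright probe (log2 ratio -0.20).

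For Ctnna3, which encodes alpha-T-catenin, a catenin of heart muscle that binds plakophilin-2 as well as the cadherin complex, the probes on the array disagreed. They target different transcripts on the plus strand of chromosome 10, so their 5′ to 3′ sequences are given (mm9), whole for the probe of the RefSeq transcript and as the last 30 bases for the other flagged probes. Capitals mark the canonical polyadenylation hexamer AATAAA.
Probe of the RefSeq transcript, across a splice junction, chr10:64138650-64297370: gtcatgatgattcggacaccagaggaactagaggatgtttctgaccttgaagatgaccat
Probe of a predicted variant, end of chr10:64467734-64467793: ttaaacaaaacAATAAAacggtcgaagtgg
Probe of an Ensembl transcript, end of chr10:63048320-63048379: ggggcttttgtttttatgAATAAAgtaaga
The hexamer stood near the end of the probes of the predicted variant and of the Ensembl transcript, and was not in the junction probe. It was found in the last 30 bases of 8.13% of all 56605 probes, read on the probe strand. A match of letters does not show that a transcript ends there.

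The junction probe of Ctnna3 had signals of 16.5 ± 3.15 in CY, 11.3 ± 2.85 in NAC + CY, 48.1 ± 5.49 in acrolein and 67.2 ± 7.49 in NS. CY and NAC + CY were low and overlapped with each other, acrolein lay above both, and NS was the highest. The log2 ratio to NS was -2.03 for CY (Z-score -2.40, called lower), -2.57 for NAC + CY (Z-score -3.29, called lower) and -0.48 for acrolein (Z-score -1.61, not called). In NAC + CY the probe was not well above background. Set against the lowest signal well above background on that array, the fall there was at least 5.37-fold. The normexp background correction, whose offset of 50 pulls ratios of dim probes towards 0, gave -0.74 for CY and -0.82 for NAC + CY, both called. The CY call was lost at a Z-score of 3, and the NAC + CY value was not tested where a P flag was asked of both arrays.

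The probe of the predicted Ctnna3 variant was dim as well, with signals of 8.20 in CY, 5.07 in NAC + CY, 28.0 in acrolein and 26.3 in NS. It was not well above background in CY and NAC + CY, which puts it at least 2.05-fold lower in CY and at least 2.10-fold lower in NAC + CY, and it was not called in either (Z-scores -1.82 and -1.80). Its acrolein signal was at the NS level, with a log2 ratio of 0.09. The probe of the Ensembl transcript, the brightest of the gene and so its value in counts of genes, ran the other way. Its signals were 58.2 ± 6.58 in CY, 48.7 ± 5.71 in NAC + CY, 36.1 ± 4.66 in acrolein and 43 ± 5.68 in NS, with neighbouring arrays overlapping in error. CY and NS are not neighbours in this order, and their error ranges did not overlap. The log2 ratios of this probe to NS of 0.44 (CY), 0.18 (NAC + CY) and -0.25 (acrolein) were not called. The transcript it targets is not in the RefSeq gene table, and it was the only gene value whose accession that table does not assign to the same symbol.

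**Figure D2:**
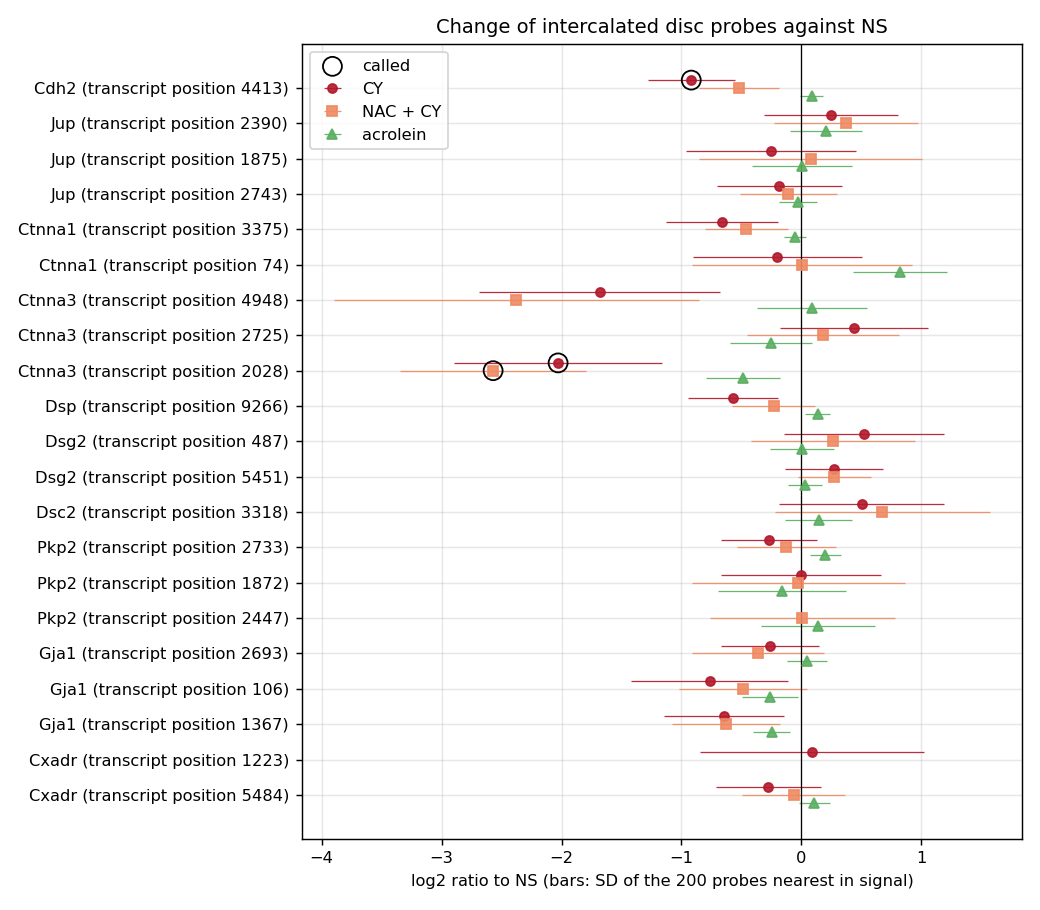
Log2 ratio to NS of each flagged intercalated disc probe for CY, NAC + CY and acrolein, with bars of 1 SD of the 200 probes nearest in signal and a ring around called values. Rings mark Cdh2 in CY (-0.92) and the Ctnna3 junction probe in CY (-2.03) and NAC + CY (-2.57), and a point is left out where the probe was not tested.

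Jup encodes plakoglobin (gamma-catenin), which sits in the plaques of both adherens junctions and desmosomes. Its brightest probe (chr11:100232376-100232435) had signals of 516 ± 51.7 in CY, 544 ± 54.4 in NAC + CY, 575 ± 57.6 in acrolein and 586 ± 58.6 in NS. The 4 arrays overlapped in error, and the log2 ratios to NS lay between -0.18 (CY) and -0.03 (acrolein). The 2 dimmer Jup probes, at 32.1 to 71.8 units, had CY ratios of -0.25 and 0.25, and none was called.

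Among the desmosomal genes no probe was called in any comparison. Dsp encodes desmoplakin, which ties the desmosomal plaque to desmin. Its probe (chr13:38290121-38290180) had signals of 8192 ± 819 in CY, 10337 ± 1034 in NAC + CY, 13349 ± 1335 in acrolein and 12123 ± 1212 in NS. CY was lowest and its error range did not reach that of NAC + CY, while NAC + CY, NS and acrolein overlapped as neighbours. The log2 ratio to NS was -0.57 for CY (Z-score -1.40), -0.23 for NAC + CY and 0.14 for acrolein, and NAC + CY against CY gave 0.34 (Z-score 1.25).

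Pkp2 encodes plakophilin-2, the plaque protein that links the desmosomal cadherins to desmoplakin. Its brightest probe (chr16:16272648-16272707) had signals of 7107 ± 711 in CY, 7878 ± 788 in NAC + CY, 9869 ± 987 in acrolein and 8584 ± 858 in NS, with neighbours in this order overlapping. The log2 ratios were -0.27 for CY, -0.12 for NAC + CY and 0.20 for acrolein (Z-score 1.54). The 2 other Pkp2 probes, for cDNA clones, had signals of 11.2 to 21.4, near background.

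The desmosomal cadherins span the membrane and bind their counterparts on the next cell. Dsg2 (desmoglein-2; chr18:20762750-20762809) had signals of 3900 ± 390.0 in CY, 3899 ± 389.9 in NAC + CY, 3296 ± 330 in acrolein and 3226 ± 323 in NS. CY and NAC + CY were level, and their log2 ratio to NS was 0.27 each. An upstream Dsg2 probe, at base 487 of the same transcript against base 5451, had 92.7 in CY, 77.4 in NAC + CY, 64.8 in acrolein and 64.5 in NS, which is 0.52 for CY on the log2 scale (Z-score 0.90). For Dsc2 (desmocollin-2; chr18:20190337-20190396) the signal was 102 ± 10.66 in CY, 115 ± 11.9 in NAC + CY, 79.7 ± 8.48 in acrolein and 72.1 ± 8.05 in NS. CY and NAC + CY were the high arrays and did not overlap with acrolein, yet the log2 ratios of 0.50 for CY and 0.68 for NAC + CY had Z-scores of 0.73 and 0.74, with window SDs of 0.69 and 0.90.

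**Figure D3:**
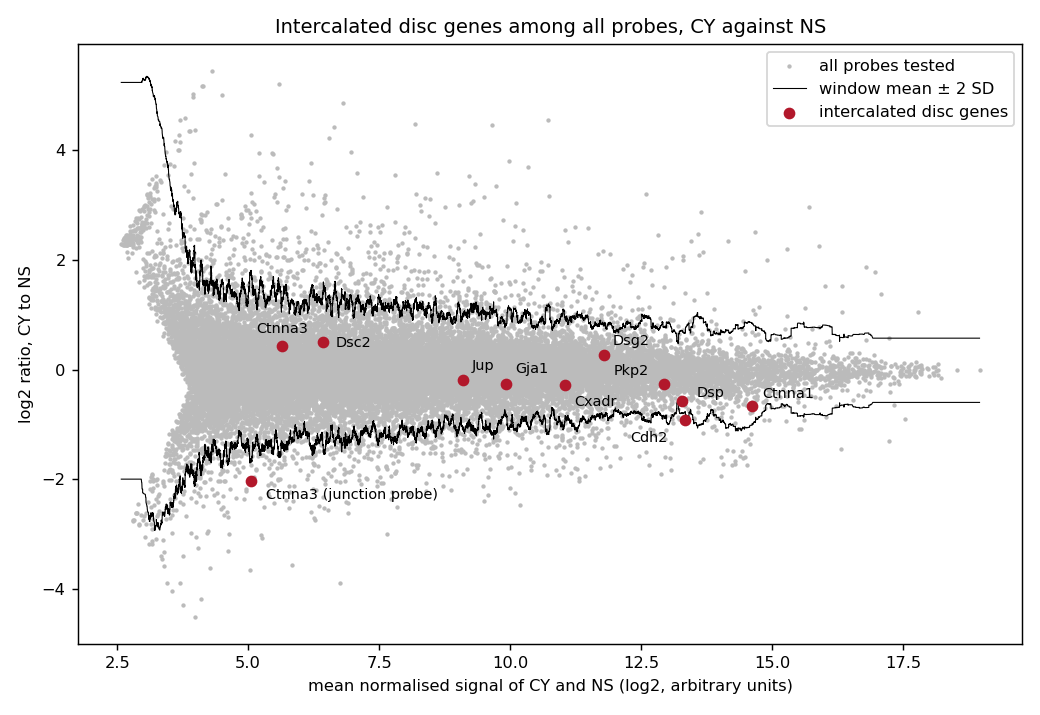
Log2 ratio of CY to NS against the mean normalised signal of both arrays (log2, arbitrary units) for all 28757 tested probes, with the gene value of each intercalated disc gene and the Ctnna3 junction probe in red. The lines are the mean of the 200 probes nearest in signal plus and minus 2 SD, and of the named points Cdh2 and the Ctnna3 junction probe lie below them.

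Gja1 encodes connexin 43, the main gap junction channel of ventricular muscle. Its brightest probe (chr10:56109814-56109873, base 2693 of the transcript) had signals of 887 ± 88.8 in CY, 827 ± 82.8 in NAC + CY, 1098 ± 110 in acrolein and 1061 ± 106 in NS. All neighbouring arrays overlapped in error, and the log2 ratios were -0.26 for CY, -0.36 for NAC + CY and 0.05 for acrolein.

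Further upstream on the same Gja1 transcript the ratios were lower. The mm9 coordinates of the probe placed at base 1367 span 491 bases, although the probe has 60, for a reason that was not examined. At base 1367 the signals were 400 ± 40.1 in CY, 405 ± 40.6 in NAC + CY, 528 ± 52.9 in acrolein and 627 ± 62.8 in NS, so that CY and NAC + CY lay below NS beyond the spot error. At base 106 they were 78.4 ± 8.29 in CY, 95.2 ± 9.85 in NAC + CY, 111 ± 11.5 in acrolein and 133 ± 13.7 in NS. The log2 ratios of CY were -0.65 and -0.76 at these positions, those of NAC + CY -0.63 and -0.48, and those of acrolein -0.25 and -0.26, and none was called. From the first to the last of the 3 probes the CY ratio differed by -0.51 (upstream minus downstream), the NAC + CY ratio by -0.13 and the acrolein ratio by -0.31. Over 1782 transcripts with probes at least 1000 bases apart, that difference had a median of 0.02 for CY (quartiles -0.18 and 0.24), 0.05 for NAC + CY (-0.16 and 0.29) and -0.02 for acrolein (-0.19 and 0.13). For Gja1 it was thus below the lower quartile in CY and in acrolein. The part of RNA quality in this was not tested. The 5 other Gja1 probes had no P flag on any array, and 4 of them lie across a splice junction of a predicted or alternative transcript.

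**Figure D4:**
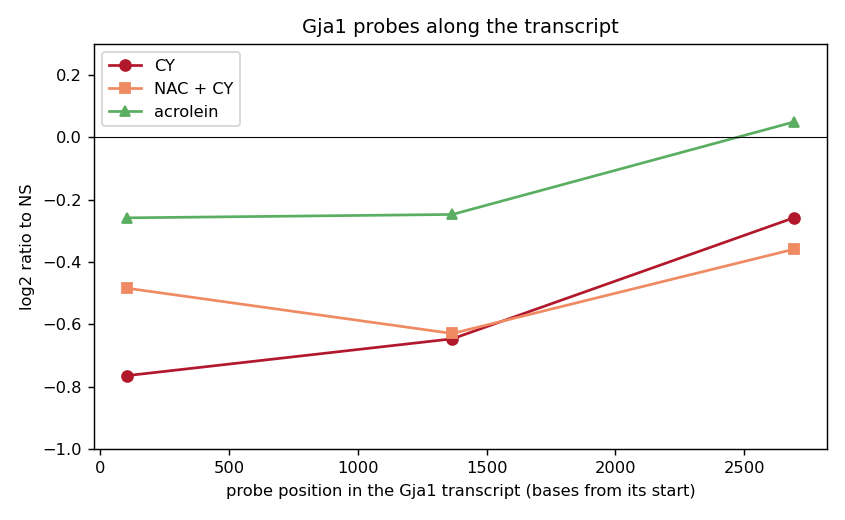
Log2 ratio to NS of the 3 flagged Gja1 probes against their position in the transcript (bases from its start), for CY, NAC + CY and acrolein. CY runs from -0.76 at base 106 to -0.26 at base 2693, and no point was called.

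Cxadr encodes the coxsackievirus and adenovirus receptor, an adhesion protein of the disc. Its brightest probe (chr16:78340923-78340982) had signals of 1932 ± 193 in CY, 2237 ± 224 in NAC + CY, 2520 ± 252 in acrolein and 2337 ± 234 in NS, with all neighbours overlapping. The log2 ratios to NS were -0.27, -0.06 and 0.11 for CY, NAC + CY and acrolein. A probe of another transcript was flagged on the CY array alone, at 17.9 units in CY and 16.9 in NS.

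In CY the median of the 10 genes lay below that of all genes but between the quartiles of all genes. By gene value 7 of 10 had a log2 ratio below 0 in CY, against 51.6% of all 19721 genes. The median of the 10 was -0.27, against -0.02 over all genes (quartiles -0.28 and 0.26). In acrolein 3 of 10 were below 0, against 48% of all 19700 genes, with a median of 0.07 and 0.01 over all genes. In NAC + CY the median was -0.12 with 7 of 10 below 0, against 51% of 19808 genes and a median of -0.01. All 3 ratios share the NS array, so their likeness is not independent. CY was the lowest of the 4 arrays in 6 of the 10 genes, against 32.2% of 20738 genes with a flagged probe, and the highest in 2, against 26.8%. Those 2 are Ctnna3, by its Ensembl-transcript probe alone, and Dsg2, where CY and NAC + CY were level. Of the 30 pairs of arrays that are neighbours in the order of a gene, 25 overlapped in error, close to the 83.5% of 62214 such pairs over all genes.

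NAC + CY lay between CY and NS in 8 of the 10 genes, all but Dsc2 and Gja1, and in 41.8% of 20738 genes with a flagged probe. For Dsg2 this rests on level CY and NAC + CY signals and ends with scaling to the 75th percentile, where the log2 ratio of NAC + CY to CY lay above 0, at 0.03. For Ctnna3 it rests on the Ensembl-transcript probe, whereas the junction probe and the predicted-variant probe had their lowest signals in NAC + CY. Of the 8 genes, only Cdh2 had NAC + CY apart from both CY and NS beyond the spot error. In NAC + CY against CY, none of 20 member probes was called, where 2.34% of 29350 probes were called lower and 1.25% higher. The 20 probes had a median log2 ratio of 0.14, with 0.03 the median over all probes, and by gene value 3 of 10 were below 0, against 47% of 20083 genes. The highest Z-scores were those of Cdh2 (1.42) and Dsp (1.25). The window SD had a median of 0.58 in CY against NS, 0.54 in NAC + CY against NS and 0.22 in acrolein against NS, so a ratio that passes in acrolein may not pass in CY.

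Other genes of these junctions were read from 4 lists with 44 genes on the array, 39 of them tested. In CY against NS, 2 were called higher and 2 lower, where 3.38% of genes were called higher and 2.81% lower, and the median was -0.24. Ank2 (ankyrin-B, an adaptor for ion channels and transporters) had signals of 1387 in CY, 1539 in NAC + CY, 3608 in acrolein and 3909 in NS. It fell by 1.49 on the log2 scale in CY (Z-score -2.95) and by 1.34 in NAC + CY (Z-score -3.28). Xirp2 (a Xin repeat protein that binds actin at the disc) had signals of 515 in CY, 752 in NAC + CY, 1213 in acrolein and 1292 in NS, and fell by 1.33 in CY (Z-score -2.22). Pkp4, a relative of plakophilins that is found at adherens junctions, was called lower in NAC + CY (log2 ratio -0.85, Z-score -2.40) and had -0.77 in CY (Z-score -1.98), not called. Xirp2 had -0.78 in NAC + CY (Z-score -1.82), not called, so Ank2 was the only 1 of these 3 genes called on both arrays.

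The partner genes called higher in CY were Ppl and Evpl, plakins of epithelial desmosomes. Ppl (periplakin) had 313 in CY, 163 in NAC + CY, 96.8 in acrolein and 115 in NS, a log2 ratio of 1.44 for CY (Z-score 2.47). Evpl (envoplakin) had 221 in CY, 99.7 in NAC + CY, 70.8 in acrolein and 94.2 in NS, a log2 ratio of 1.23 for CY (Z-score 2.22). Both had their highest signal on the CY array, and both were called lower in NAC + CY against CY, where 2.82% of genes were called lower and 1.54% higher. Dsg1a, Dsg3, Dsc1, Pkp1 and Pkp3 of the same list had no P flag. The other tested genes of that list, Dsc3 (-0.05) and Perp (-0.23), were slightly lower in CY than in NS and not called. In NAC + CY against NS, where 2.59% of genes were called lower and 2.68% higher, Ank2 and Pkp4 were the partners called. In acrolein, where 1.29% of genes were called lower and 1.08% higher, none of the 39 was called, and their median was 0.05. The adherens junction list of 12 genes, with beta-catenin (Ctnnb1, -0.17) and vinculin (Vcl, -0.32), had no call in CY and a median of -0.27. The gap junction list of 6, with connexin 40 (Gja5, 0.83) and connexin 45 (Gjc1, -0.21), had none either and a median of -0.06.

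**Figure D5:**
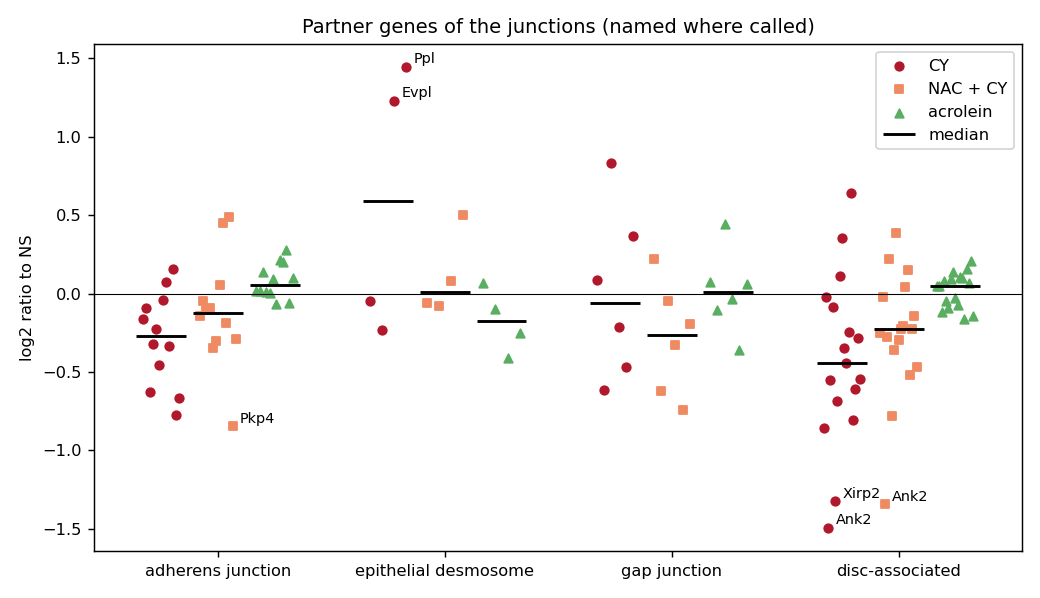
Log2 ratio to NS of the 39 tested partner genes in 4 lists (adherens junction, epithelial desmosome, gap junction and disc-associated), 1 point per gene for CY, NAC + CY and acrolein, with a bar at each median and names at called points. The disc-associated list has a CY median of -0.44 and holds Ank2 (-1.49) and Xirp2 (-1.33), while Ppl (1.44) and Evpl (1.23) stand above the rest of their list.

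Markers of other cell types also moved on the treated arrays. Of 12 mesothelial markers (the lining of the heart's surface), 10 were called higher and none lower in CY, with a median log2 ratio of 1.71 and a summed signal of 10720 in CY and 2680 in NS. Of 9 atrial muscle markers 8 were called higher and none lower, with a median of 1.87 and a summed signal of 820354 in CY and 306909 in NS. The cardiomyocyte list had 2 of 12 lower (Ttn at -1.47 and Actc1 at -1.30), a median of -0.20 and a summed signal of 1773110 in CY and 2061640 in NS. Quantile normalisation gives equal ranks the same signal, as for Mb in CY and NS (log2 ratio 0). The sums of this bright list therefore do not measure the amount of cardiomyocytes. In NAC + CY, where the Ctnna3 junction probe was also lower, none of 11 tested mesothelial markers was called (median 0.07) and 2 of 12 cardiomyocyte markers were lower (median -0.09). On that array 5 of 9 atrial markers were called higher (median 0.69), as were 6 of 8 hepatocyte markers (median 2.26), 4 of 6 adipocyte markers (median 1.40) and 4 of 5 tested neutrophil markers (median 3.44), and 4 of 8 fibroblast markers were called lower (median -0.83). On the CY array all 7 platelet markers were called higher as well (median 3.54). Hepatocyte and neutrophil markers moved in CY too. There 3 of 5 tested hepatocyte markers (median 1.56) and 2 of 5 tested neutrophil markers were called higher. Of 5 tested lymphocyte markers 4 were called lower in CY and 3 in NAC + CY. Of 8 smooth muscle and pericyte markers 2 were called higher and 3 lower in CY, and 3 lower in NAC + CY. In acrolein, where no disc probe was called, 9 of 11 tested mesothelial markers were called lower (median -1.12) and 1 higher (Sfrp5, 0.68). Other lists moved there too, among them adipocyte markers, with 4 of 6 called lower (median -1.94). Of 5 tested neutrophil markers 3 were called higher in acrolein (median 2.95). Of 10 general epithelial markers 6 were tested in CY and 1 was called higher, and Cdh1 and Epcam, which define epithelium, had no P flag on any array. The part of tissue composition in the values of the disc genes was not tested.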

How the data were processed

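Heart RNA of 4 conditions was measured on 1 array each. The deposited intensity values are the background-subtracted signals of each spot from Agilent Feature Extraction (version 9.5.1.1 per the labels, 10.7.1.1 in the file headers), not yet normalised. The authors' value table holds linear signals of the same arrays with a median of 13.9 in each column, and all 56605 ranks of its sorted columns were equal over the arrays within 0.1%, as quantile normalisation, which the methods name with preprocessCore, leaves them. Log2 signals of 59305 spots were brought to a common distribution by quantile normalisation across all 4 arrays, and repeated spots averaged. P flags, Z-scores and ratios followed the criteria of the study's methods, which do not name the window of 200 probes used here. Positions were taken from the array files (mm9), and exons and UTRs were not assigned. Accessions of 17 of the 30 member probes matched the same symbol in the RefSeq gene table (GRCm38.p6), and 13 were outside it. Probe sequences were read from the array files. All 10 genes are named with every flagged probe, and partner genes are named where called or as list examples, except 1 result that is not reported here. Members and lists were chosen with earlier results of these data known. With 1 array per condition no test across samples was possible, and precision is limited by that number of arrays. The procedure was tested on simulated data. Their noise was set in advance and not taken from the spread of the ratios seen here, so this checks the code alone. The 11 alternatives changed the normalisation, background correction, filter, window, Z-score, criteria or source of values, and a gene's median over probes was tried too. Python 3.11.15, numpy 2.4.6, pandas 2.3.3, matplotlib 3.10.9, R 4.3.3 and limma 3.58.1 (normexp, offset 50) were used.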

Additional observations from a re-analysis of the deposited data

How the results depend on the processing

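Of the recomputed counts of called member probes and genes, 83 stayed within 1.5 times of the reported count and 9 did not, and no called value changed sign. Most of the reported counts were 0, so the 83 say little about how firm the calls are. The uncalled Dsg2 ratio of NAC + CY to CY, at 0 within the spot error, ran from -0.02 to 0.03 over the alternatives. For probes lower in CY against NS (2), the count was 1 with normexp and with a ratio of 2 or 0.5 (the Ctnna3 junction probe in each), 0 at a Z-score of 3, and 4 with the median and scaled MAD, which added Ctnna1 and a second Ctnna3 probe. For probes higher in acrolein against NS (0), it was 1 with a P flag on both arrays and 1 with the median and scaled MAD, the dim Ctnna1 probe in each. For probes lower in NAC + CY against NS (1), it was 2 without the filter on dim probes and 2 with the median and scaled MAD, both of Ctnna3, and 0 with a P flag on both arrays, since the junction probe was then not tested. Over the 11 alternatives the log2 ratio of Cdh2 in CY stayed between -1.02 and -0.91. The partner genes called in CY against NS (2 lower, 2 higher) depended on the criteria as well. At a Z-score of 3 none was called, and normexp left 2 lower and 1 higher. The median and scaled MAD gave 7 lower and 3 higher. Leaving out an array was not possible, since each condition has 1. No paired analysis was possible because each condition has 1 array and the labels give no replicate numbers. Probes near background give only bounds, which touches the Ctnna3 values most.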

Other observations

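The genes whose ratios to NS were most like those of Cdh2, by Euclidean distance over the 3 treated arrays among 20738 genes, were Vps13d (distance 0.050, with log2 ratios of -0.91 in CY, -0.54 in NAC + CY and 0.13 in acrolein), 1700040L02Rik (0.054) and Inpp5a (0.056). The 3 ratios of a gene share the NS array, so this likeness describes 4 arrays only. A further probe, described in the array files as a desmoglein 2 clone but carrying another gene name, had signals of 2.95 in CY, 2.96 in NAC + CY, 2.92 in acrolein and 3.00 in NS, with no P flag on any array.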
